A study of Homo sapiens with 12 samples.

Results

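RNA polymerase I is the enzyme that copies the ribosomal DNA repeats into the precursor of the large ribosomal RNAs. Described here are the mRNAs of the 8 subunits that carry a POLR1 name (POLR1A to POLR1H) and of the initiation factors RRN3 and UBTF, taken by gene symbol from the deposited transcript table. They are 10 of the 34318 genes to which a row could be assigned, and 91 of its 194142 transcript rows. POLR1F, POLR1G and POLR1H were found under the older symbols TWISTNB, CD3EAP and ZNRD1.

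As background, POLR1A and POLR1B form the catalytic core, POLR1C and POLR1D form an assembly dimer that Pol I shares with RNA polymerase III, and POLR1E with POLR1G forms a dimer found in Pol I alone. UBTF is an architectural protein with HMG boxes that coats active ribosomal DNA, and RRN3 bridges the polymerase to the promoter factor SL1. Ribosomes need 5S rRNA from RNA polymerase III together with the Pol I product. The comparisons show how the mRNAs of the Pol I machinery stood when Pol III was depleted or a Pol III inhibitor was given.

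The cells were HEK293T, an established human line of embryonic kidney origin that carries the SV40 large T antigen, used between passages 10 and 25. In the first experiment, siPOLR3A, a small interfering RNA against POLR3A, the largest Pol III subunit, was transfected with Lipofectamine RNAiMax and compared after 2 days with siControl. In the second, ML60218, a small molecule used as a Pol III inhibitor, was given at 25 µM for 4 hours and compared with DMSO at 0.1%. Each of the 4 groups had 3 mRNA-seq libraries. The labels do not say that they came from separate cultures, so the p-values measure the spread between these libraries.

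The 12 libraries held between 37008325 and 49479476 estimated reads, of which 91.03 to 91.63% fell on rows assigned to a gene. POLR3A, the target of the siRNA, stood at 92.2, 93.5 and 86.8 CPM (read counts scaled to a library of fixed size) in siControl and at 19.3, 19.0 and 14.6 CPM in siPOLR3A, a log2 fold change of -2.36 ± 0.11 (SE). It was also lower after ML60218, at 85.1 to 89.0 CPM against 108 to 118 CPM in DMSO. All 7 HEK293 marker genes averaged at least 1 TPM (a level that also takes transcript length into account), and 6 of the 7 kidney tubule and glomerulus markers stayed below 0.5 TPM in every library, LRP2 being the exception. The summed level of the HEK293 markers was 312 to 342 TPM in siControl and 187 to 194 TPM in siPOLR3A, and 248 to 265 TPM in DMSO against 278 to 305 TPM in ML60218. Its part in the differences below was not tested. Of the 4 fibroblast markers, 2 reached a mean of 1 TPM (COL1A1 and LUM), and the sum of the list in siControl, siPOLR3A, DMSO and ML60218 was at most 29.7, 32.9, 22.4 and 23.6 TPM. PTPRC, a marker of blood cells, was listed at 0, and COL1A2 and the 3 endothelial markers were near 0. In bulk RNA, fewer cells of a kind and less RNA per cell cannot be told apart.

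With siPOLR3A, 6 of the 10 genes passed the test: POLR1C, POLR1H and UBTF rose, and POLR1D, POLR1E and POLR1G fell. Over all 15404 genes tested, 56.6% passed, 27.4% higher and 29.2% lower, so the members' count lay close to the background. With ML60218, 4 of the 10 passed, all lower (POLR1C, POLR1G, RRN3 and UBTF), against 39.0% of 15461 genes in either direction, 20.9% lower and 18.1% higher. The CPM of the control and treated libraries did not overlap for 7 members with siPOLR3A and for 6 with ML60218, beside 63.4% and 51.9% of all genes. The median absolute log2 fold change of the members was 0.13 with siPOLR3A and 0.079 with ML60218, against 0.23 and 0.17 over all genes. The test was edgeR's quasi-likelihood test with Benjamini-Hochberg adjustment over all genes, and a gene was called at an adjusted p under 0.05. The effects of the 2 treatments differed, in 1 fit of all libraries, for 4 members (POLR1C, POLR1E, POLR1H and UBTF), against 50.9% of 15780 genes. POLR1G was the member that fell in both experiments under each of the 15 alternatives tested per experiment. Without any 1 of the DMSO libraries it was the only member called with ML60218.

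The split of calls depended on how libraries were scaled. With upper quartile scaling or with total counts in place of TMM, POLR1A, POLR1B and POLR1F were also called higher with siPOLR3A and POLR1D lost its call, giving 6 higher and 2 lower members. Under these same scalings ML60218 left POLR1G and RRN3 lower and POLR1B higher. Over all genes, the share of calls that were higher moved in the same settings from 48.4% to 58.7% and 57.0% for siPOLR3A, and from 46.4% to 58.6% and 67.0% for ML60218.

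**Figure D1:**
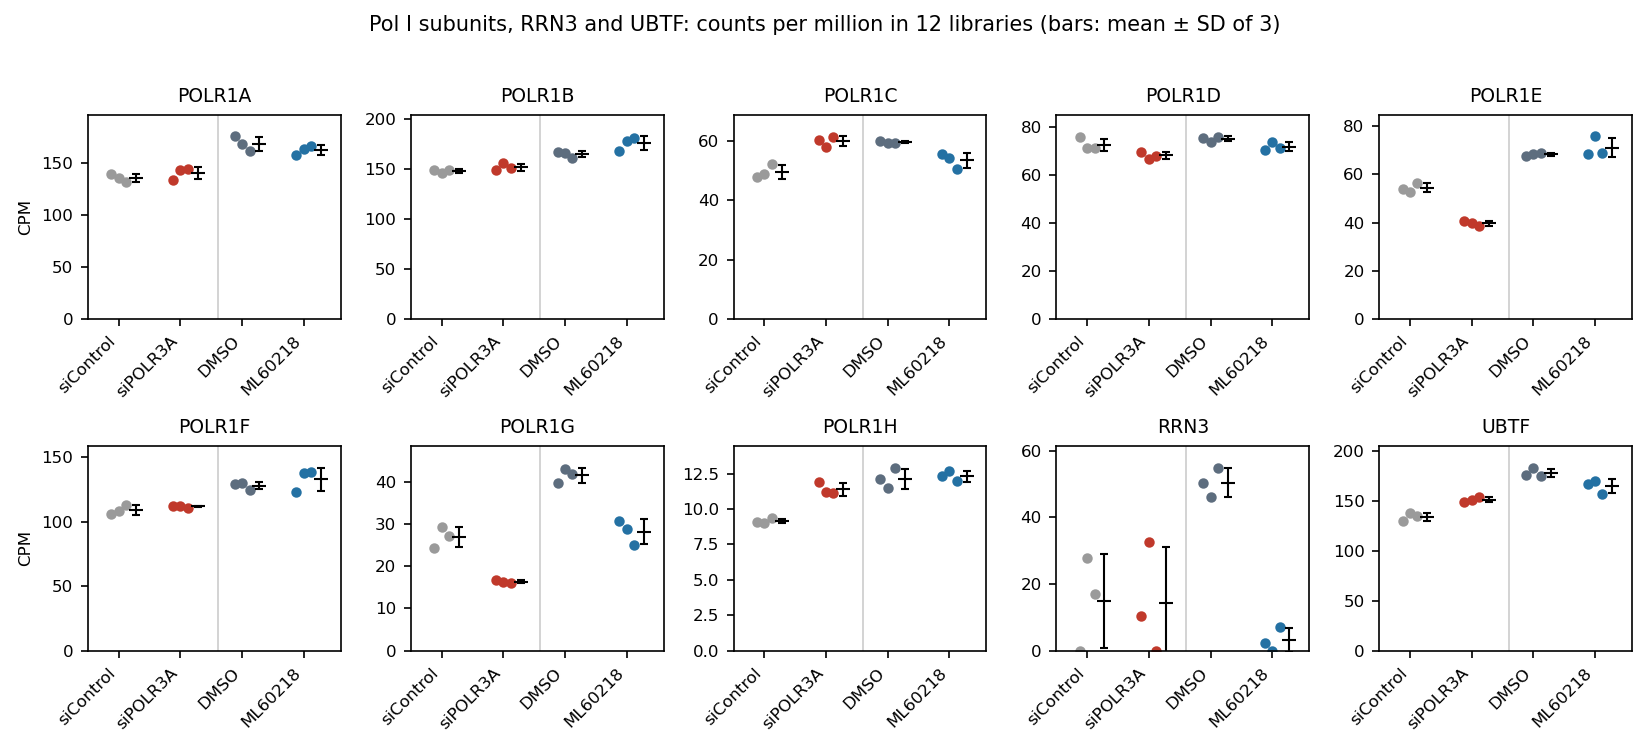
CPM of the 10 genes in each of the 12 libraries, with the mean and SD of the 3 libraries of a group beside the points. The experiments were scaled separately and are divided by a grey line. POLR1G is lower in every siPOLR3A and ML60218 library than in its controls, POLR1E is lower in every siPOLR3A library than in siControl, and RRN3 spreads from 0 to 54.9 CPM.

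The catalytic core moved little. POLR1A, the largest subunit (chr2:86020216-86106155, minus strand, GRCh38), stood at 139.9, 136 and 132 CPM in siControl and at 134, 144 and 145 CPM in siPOLR3A. The groups overlapped, and the log2 fold change was 0.051 ± 0.033 (SE, edgeR adjusted p = 0.205), although it passed without siPOLR3A library 1 (0.084, edgeR adjusted p = 0.0456). In the second experiment POLR1A was at 176, 169 and 162 CPM in DMSO and at 158, 164 and 167 CPM in ML60218, again overlapping (-0.054 ± 0.038, edgeR adjusted p = 0.294). POLR1B, the second largest subunit (chr2:112541915-112577150, plus strand), stood at 149, 146 and 149.6 CPM in siControl and at 149.6, 156 and 151 CPM in siPOLR3A. Before rounding these groups did not overlap, but the change of 0.038 ± 0.026 did not pass (edgeR adjusted p = 0.244). In DMSO POLR1B was at 167, 166 and 161 CPM, and in ML60218 it was at 168, 178 and 181 CPM. The ML60218 libraries lay above DMSO without overlap, but the change of 0.094 ± 0.036 did not pass (edgeR adjusted p = 0.0649). It passed when the ML60218 library 1 was left out (0.12, edgeR adjusted p = 0.0112) and in 1 fit of all 12 libraries (edgeR adjusted p = 0.0290). The effects on POLR1A differed by 0.11 ± 0.054 (edgeR adjusted p = 0.104, or 0.0352 without siPOLR3A library 1).

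Within POLR1A the reads were divided between a pair of coding transcripts. POLR1A-201 held 62.0% of the gene's reads in siControl and 59.4% in siPOLR3A, and POLR1A-203 held 30.6% and 34.1%. POLR1A-203 was at 42.1, 42.1 and 40.8 CPM in siControl and at 47.0, 48.9 and 47.9 CPM in siPOLR3A. It rose by 0.19 ± 0.035 on the log2 scale (edgeR adjusted p = 0.0230 over 69805 rows), whereas POLR1A-201 changed by -0.025 ± 0.043 (edgeR adjusted p = 0.804). With ML60218 the share of POLR1A-203 went from 26.6% to 31.9% and its groups did not overlap, but the row did not pass (0.21 ± 0.078, edgeR adjusted p = 0.244). In the coding region these transcripts differ by a stretch of 183 bases at the 3' end of an exon, which POLR1A-201 has and POLR1A-203 lacks. The stretch lies at chr2:86031330-86031512 on the minus strand of GRCh38. It is printed because it is the coding sequence by which the row that rose differs from the row that did not. Outside the coding region, POLR1A-201 runs to chr2:86020216 at its 3' end and POLR1A-203 only to chr2:86026328. The rows are 12480 and 6454 bases long. Which of these stretches separated their reads was not tested.
POLR1A-201 stretch: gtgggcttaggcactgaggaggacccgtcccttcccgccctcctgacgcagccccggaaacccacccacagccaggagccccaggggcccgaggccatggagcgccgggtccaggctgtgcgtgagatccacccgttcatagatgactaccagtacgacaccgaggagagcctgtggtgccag

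POLR1B had 4 rows with at least 10% of its reads in some group. POLR1B-217 fell with siPOLR3A, from 40.7, 45.5 and 46.1 CPM to 37.3, 33.3 and 36.1 CPM (-0.32 ± 0.066, edgeR adjusted p = 0.0326), and its share of the gene's reads went from 29.8% to 23.4%. POLR1B-202, annotated as a target of nonsense-mediated decay, went from 10.7% to 16.0% of the reads, but its libraries overlapped (12.0 to 20.9 CPM against 19.4 to 30.9 CPM) and it did not pass (0.59 ± 0.26, edgeR adjusted p = 0.252). POLR1B-204 and POLR1B-201 changed by 0.087 ± 0.054 and -0.066 ± 0.060, neither past the threshold. After ML60218 no POLR1B row passed.

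POLR1C and POLR1D, the dimer that Pol I and Pol III have in common, moved differently. POLR1C (chr6:43509702-43562419, plus strand) stood at 47.7, 48.8 and 52.2 CPM in siControl and at 60.1, 57.9 and 61.2 CPM in siPOLR3A. Every siPOLR3A library lay above every control, and the gene rose 1.20-fold (log2 0.27 ± 0.039, edgeR adjusted p = 4.15e-05). With ML60218 the direction was the opposite: 59.7, 59.1 and 59.2 CPM in DMSO and 55.5, 54.0 and 50.4 CPM in ML60218 (-0.16 ± 0.044, edgeR adjusted p = 0.0193). The change with ML60218 did not pass with total counts (-0.086, edgeR adjusted p = 0.125), upper quartile scaling, or without any DMSO library. The difference between the siPOLR3A effect and the ML60218 effect, tested in 1 fit of all 12 libraries, was 0.43 ± 0.060 (edgeR adjusted p = 1.88e-05).

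The main coding row of the gene, POLR1C-211, held 54.7% to 62.0% of its reads. It rose with siPOLR3A by 0.32 ± 0.060 (edgeR adjusted p = 0.0253), from 25.6, 26.8 and 28.9 CPM to 35.2, 32.5 and 34.5 CPM. The retained-intron row POLR1C-208, with 8.97 to 10.6% of the reads, did not pass in either experiment. The minor coding row POLR1C-202 held 24.0, 12.6 and 11.1 estimated reads in siControl and 0 in each siPOLR3A library. The row was called (edgeR adjusted p = 0.0369), but its reads are estimates divided among the POLR1C rows, so no fold is given. In the second experiment the same row varied from 0 to 72.5 reads with no order between the groups. XPO5, YIPF3 and LRRC73 lie on the opposite strand over 6.3%, 2.3% and 2.5% of the exonic bases of POLR1C, and whether reads were assigned by strand is not given in the sources used here.

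POLR1D (chr13:27620742-27744237, plus strand) stood at 75.8, 71.3 and 71.4 CPM in siControl and at 69.9, 66.7 and 68.2 CPM in siPOLR3A. The groups did not overlap, and the decrease was small (-0.092 ± 0.034, edgeR adjusted p = 0.0317). That call did not hold with DESeq2 (adjusted p = 0.111), in 1 fit of all 12 libraries (edgeR adjusted p = 0.0505), or without siControl library 1, siPOLR3A library 2 or siPOLR3A library 3. In the second experiment POLR1D was at 75.7, 74.0 and 75.9 CPM in DMSO and at 70.5, 73.9 and 71.5 CPM in ML60218 (-0.063 ± 0.036, edgeR adjusted p = 0.200), and it passed, lower, once the length of the transcripts in use was taken into account (-0.17, edgeR adjusted p = 0.0171).

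The gene gives rise to a pair of products with the same first codons and different continuations, and its reads were divided between them. POLR1D-201, whose reading frame is that of the subunit itself, has 399 coding bases, and POLR1D-203 has 366. The sequences below, from GRCh38 and the plus strand, show where they part. The shared coding start lies at chr13:27621984-27622009 (capitals mark the start codon), the continuation of POLR1D-201 at chr13:27622875-27622949 and that of POLR1D-203 at chr13:27648379-27648453.
POLR1D shared start: ATGgaagaggatcaggagctggagag
POLR1D-201 continuation: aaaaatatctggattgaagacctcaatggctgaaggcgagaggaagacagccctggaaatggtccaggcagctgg
POLR1D-203 continuation: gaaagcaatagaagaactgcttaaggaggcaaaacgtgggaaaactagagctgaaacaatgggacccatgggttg

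The row with the subunit's frame was the lower one. POLR1D-201 stood at 35.2, 32.3 and 34.0 CPM in siControl and at 29.5, 28.1 and 28.5 CPM in siPOLR3A, without overlap, and fell by 0.25 on the log2 scale (SE 0.049, edgeR adjusted p = 0.0269). POLR1D-203 was at 27.7, 27.0 and 25.5 CPM and at 28.2, 25.8 and 27.4 CPM, overlapping throughout (0.0078 ± 0.053, edgeR adjusted p = 0.957). With ML60218, POLR1D-201 was at 37.7, 37.0 and 38.5 CPM in DMSO and at 32.8, 31.5 and 28.8 CPM in ML60218, again without overlap, but it missed the threshold (-0.29 ± 0.056, edgeR adjusted p = 0.0662). The share of the gene's reads on POLR1D-201 was 46.5% ± 1.14 in siControl, 42.0% ± 0.270 in siPOLR3A, 50.2% ± 0.485 in DMSO and 43.2% ± 3.16 in ML60218 (SD, n = 3). The minor row POLR1D-206, 1.80 to 3.01% of the reads, also fell with siPOLR3A (-0.83 ± 0.19, edgeR adjusted p = 0.0481). The POLR1D-201 row is 693 bases long in the deposited table and 1166 in GENCODE 29, and where the versions differ was not examined.

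POLR1E and POLR1G, whose dimer supports initiation and elongation in Pol I, had the larger decreases among the subunits with siPOLR3A. With ML60218 only POLR1G of this dimer was called. POLR1G (CD3EAP in the table; chr19:45406209-45410766, plus strand) stood at 24.4, 29.3 and 27.2 CPM in siControl and at 16.7, 16.3 and 15.9 CPM in siPOLR3A. In the second experiment it stood at 39.6, 43.1 and 41.9 CPM in DMSO and at 30.8, 28.9 and 24.9 CPM in ML60218. No treated library reached the lowest control of its experiment. POLR1G fell by 39.4% with siPOLR3A (log2 -0.72 ± 0.065, edgeR adjusted p = 3.72e-07) and by 32.2% with ML60218 (log2 -0.56 ± 0.074, edgeR adjusted p = 0.000654). The effects differed by -0.16 ± 0.11, which did not pass (edgeR adjusted p = 0.236) except without ML60218 library 3 (-0.25, edgeR adjusted p = 0.0298).

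A single coding row, CD3EAP-201, held 90.3% to 92.2% of the POLR1G reads and fell in both experiments, by 0.72 (SE 0.092, edgeR adjusted p = 0.00643) and by 0.55 (SE 0.080, edgeR adjusted p = 0.0386) on the log2 scale. It was the only member row called with ML60218, and no member row was called there when any DMSO library, or ML60218 library 2 or 3, was left out. Of the exonic bases of POLR1G, 43.5% lie opposite exons of ERCC1, a DNA repair gene on the other strand, named here after its values were seen. ERCC1 changed by 0.06 ± 0.046 with siPOLR3A (edgeR adjusted p = 0.314) and by -0.27 ± 0.056 with ML60218 (edgeR adjusted p = 0.00413). The libraries were made with a stranded kit, but whether the counting used the strand is not given in the sources used here. Whether reads of these 2 genes in the shared bases were kept apart is therefore not known.

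POLR1E (chr9:37485935-37503697, plus strand), the partner of POLR1G, stood at 54.1, 52.7 and 56.6 CPM in siControl and at 40.7, 40.0 and 38.6 CPM in siPOLR3A. It fell by 27.0% with siPOLR3A (log2 -0.45 ± 0.038, edgeR adjusted p = 1.62e-07). After ML60218 it was at 68.6, 75.8 and 69.1 CPM against 67.5, 68.7 and 68.8 CPM in DMSO, and the groups overlapped (0.057 ± 0.045, edgeR adjusted p = 0.347). The effects differed by -0.51 ± 0.061 (edgeR adjusted p = 4.62e-06), the largest tested difference among the 10 genes apart from that of RRN3, which did not pass. One row, POLR1E-202, carried 94.7% to 98.1% of the reads and fell by 0.52 with siPOLR3A (SE 0.043, edgeR adjusted p = 0.00144).

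POLR1F, the stalk subunit that RRN3 contacts, and POLR1H, the small subunit for RNA cleavage and termination, are each held almost wholly by a single row. POLR1F (TWISTNB; chr7:19695462-19709087, minus strand) stood at 106, 108 and 113 CPM in siControl and at 112, 112 and 111 CPM in siPOLR3A. It was at 129, 130.4 and 125 CPM in DMSO and at 123, 138 and 139 CPM in ML60218. The groups overlapped in both experiments, with changes of 0.034 ± 0.030 (edgeR adjusted p = 0.344) and 0.059 ± 0.047 (edgeR adjusted p = 0.354). Without ML60218 library 1 the latter passed (0.11, edgeR adjusted p = 0.0210).

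POLR1H (ZNRD1; chr6:30058899-30064909, plus strand) was the subunit with the lowest CPM. It stood at 9.10, 9.04 and 9.33 CPM in siControl and at 11.9, 11.2 and 11.1 CPM in siPOLR3A, and rose 1.25-fold without overlap (log2 0.32 ± 0.065, edgeR adjusted p = 0.000781). With ML60218 it was at 12.3, 12.7 and 12.0 CPM against 12.1, 11.5 and 12.9 CPM in DMSO (0.024 ± 0.070, edgeR adjusted p = 0.814). The effects differed by 0.30 ± 0.089 (edgeR adjusted p = 0.0107). The table holds 2 of its 6 annotated transcripts, and ZNRD1ASP lies opposite 24.5% of its exonic bases. ZNRD1ASP changed by -0.07 ± 0.072 with siPOLR3A (edgeR adjusted p = 0.397) and by 0.56 ± 0.086 with ML60218 (edgeR adjusted p = 0.00108).

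**Figure D2:**
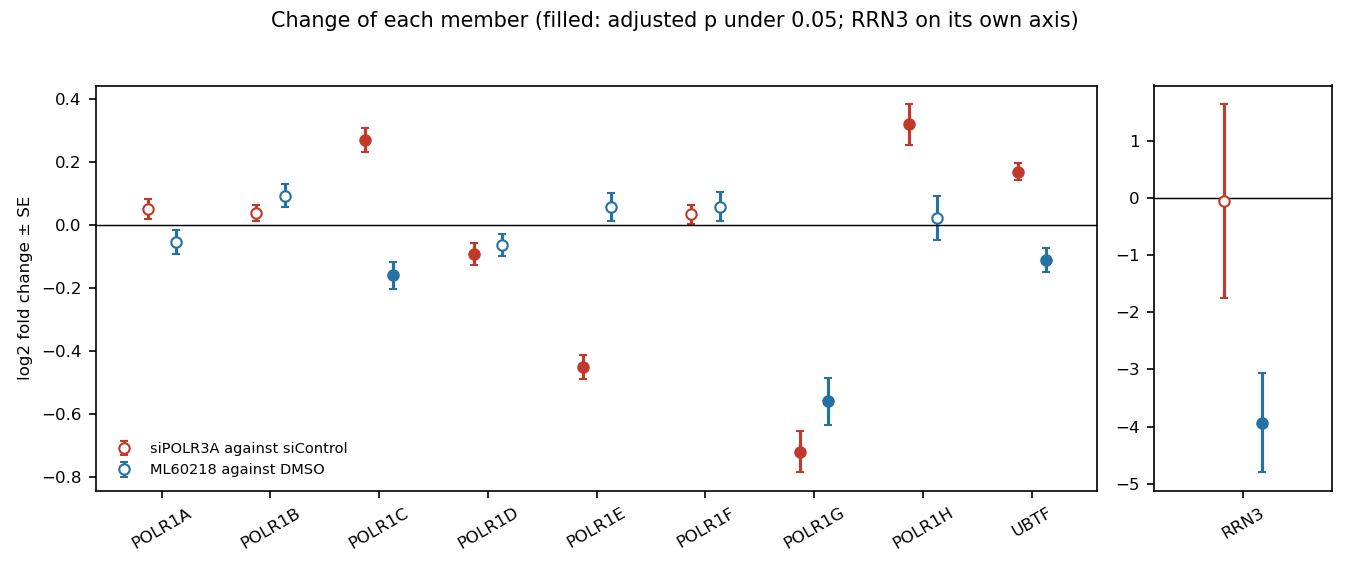
Log2 fold change of each gene with its standard error for siPOLR3A against siControl (red) and ML60218 against DMSO (blue), filled where the edgeR adjusted p was under 0.05, with RRN3 on an axis of its own. POLR1G lies near -0.72 and -0.56, and POLR1C, POLR1E, POLR1H and UBTF lie apart between the experiments.

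RRN3 (chr16:15060022-15094317, minus strand) was the member whose libraries agreed least. The table gave it 0, 995 and 654 reads in siControl, 406, 1210 and 0 in siPOLR3A, 2030, 2039 and 2337 in DMSO, and 82, 0 and 322 in ML60218. The 3 libraries at 0 allow at most 0.090, 0.087 and 0.083 CPM, from 3 reads and for counting error only, while other libraries of the same groups reached 27.7, 32.7 and 7.12 CPM. With siPOLR3A the groups overlapped fully, and the change of -0.048 ± 1.7 (edgeR adjusted p = 0.984) turned positive under 6 of 16 other ways of processing. After ML60218 all 3 libraries lay below the lowest DMSO library, at 3.12 ± 3.64 CPM against 50.5 ± 4.40 CPM (SD, n = 3), a log2 fold change of -3.93 ± 0.87 (edgeR adjusted p = 0.0296). This call did not hold with DESeq2 (adjusted p = 0.0629), in 1 fit of all 12 libraries (edgeR adjusted p = 0.0684), or without any DMSO library or ML60218 library 1, with the lower direction kept in each. The difference between the effects, 3.90 ± 2.0, did not pass (edgeR adjusted p = 0.146).

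RRN3 was represented only in part, and its sequence is shared with other genes. The table holds 1 of its 6 annotated transcripts, ENST00000198767, so reads of the others were not analysed here. Of the runs of 31 bases in that transcript, 31.6% also occur in transcripts of other genes: 26.8% in RRN3P2, 20.7% in RRN3P1 and 8.8% in RRN3P3, which are copies of RRN3, and 27.5% in AC009093.9. RRN3P1 stood at 3.40 to 4.04 CPM in DMSO and at 4.28 to 5.53 CPM in ML60218, a rise of 0.44 ± 0.13 (edgeR adjusted p = 0.0198), and did not pass with siPOLR3A (0.072 ± 0.12, edgeR adjusted p = 0.632). RRN3P3 was at or near 0, and RRN3P2 was not analysed here. With the reads of RRN3, RRN3P1 and RRN3P3 summed, the ML60218 change was -2.67 (edgeR adjusted p = 0.00539). RRN3P2 and AC009093.9, which share most with RRN3, were not in that sum. The part of shared sequence in the spread of RRN3 was not tested.

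UBTF (chr17:44205033-44221626, minus strand) moved in opposite directions in the 2 experiments. It stood at 130.1, 138 and 135 CPM in siControl and at 149, 151 and 154 CPM in siPOLR3A, and rose 1.13-fold without overlap (log2 0.17 ± 0.028, edgeR adjusted p = 0.000121). It stood at 176, 183 and 175 CPM in DMSO and at 167, 169.9 and 157 CPM in ML60218, where it fell by 7.50% (log2 -0.11 ± 0.038, edgeR adjusted p = 0.0391). The decrease did not pass without any DMSO library, without ML60218 library 3, or with upper quartile scaling or total counts (-0.073 and -0.042), and it was 0.0083 when the length of the transcripts in use was taken into account. The difference between the effects was 0.29 ± 0.047 (edgeR adjusted p = 9.93e-05).

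UBTF is known to be made in a long form and in a form that skips an exon within an HMG box, the latter being the weaker activator of ribosomal DNA. The exon has 111 bases, a whole number of codons, and lies at chr17:44212344-44212454 on the minus strand of GRCh38. It is printed because the summed reads of rows with it and of rows without it were compared.
UBTF skipped exon: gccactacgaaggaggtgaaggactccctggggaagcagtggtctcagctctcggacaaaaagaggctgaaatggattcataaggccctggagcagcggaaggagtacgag

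Of the 14 UBTF rows, 3 contain the exon by GENCODE 29 (UBTF-201, UBTF-204 and UBTF-209), 5 cover the region without it, and the other 6 do not span it. This split was made after the data were seen. Rows with the exon summed to 49.1, 53.0 and 53.7 CPM in siControl and to 69.2, 70.0 and 71.3 CPM in siPOLR3A (log2 0.43 ± 0.037, edgeR adjusted p = 2.10e-07). Rows without it were at 77.0, 79.6 and 76.7 CPM and at 74.0, 77.5 and 77.5 CPM, and overlapped (-0.027 ± 0.031, edgeR adjusted p = 0.487). The share of these reads on rows with the exon was 38.9, 40.0 and 41.2% in siControl and 48.3, 47.5 and 47.9% in siPOLR3A. With 3 libraries against 3, an exact permutation test gives 0.100 for such a separation, the smallest two-sided p the design allows.

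With ML60218 the same sum went down, from 74.7, 76.0 and 77.3 CPM in DMSO to 64.1, 58.9 and 55.1 CPM (log2 -0.36 ± 0.053, edgeR adjusted p = 0.000912), while rows without the exon changed by 0.039 ± 0.050 (edgeR adjusted p = 0.567). The share on rows with the exon was 43.8% ± 1.51 in DMSO and 37.1% ± 2.06 in ML60218 (SD, n = 3). This direction rests on 1 row. UBTF-204 went from 69.9, 52.8 and 49.7 CPM to 20.8, 5.99 and 5.69 CPM, without overlap, and did not pass on its own (-2.43 ± 0.56, edgeR adjusted p = 0.0956). UBTF-209, which also has the exon, went the other way, from 0, 12.2 and 13.7 CPM to 30.4, 44.0 and 38.8 CPM (2.13 ± 1.2, edgeR adjusted p = 0.458). With UBTF-204 left out, the share on rows with the exon was 15.4% ± 9.47 in DMSO and 32.5% ± 1.74 in ML60218, so the ML60218 direction reversed. For siPOLR3A it was 23.0% ± 2.43 against 38.7% ± 1.78, the same direction as with the row included. UBTF-204 is 4795 bases long in the deposited table and 2738 in GENCODE 29, from which its exons were taken.

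Of single UBTF rows, UBTF-209 and UBTF-213 rose with siPOLR3A. UBTF-209 went from 19.9, 12.8 and 16.7 CPM to 33.7, 41.7 and 43.2 CPM (1.25 ± 0.19, edgeR adjusted p = 0.0119), and its share of the gene's reads from 12.2% to 26.0%. UBTF-213, without the exon, went from 30.2, 28.1 and 26.0 CPM to 39.5, 33.4 and 38.0 CPM (0.38 ± 0.083, edgeR adjusted p = 0.0391). UBTF-205 went from 12.7% to 2.30% of the reads with siPOLR3A and from 17.3% to 3.41% with ML60218, with estimates of 0 in 3 libraries, and did not pass in either. UBTF-202 and UBTF-203, both without the exon, changed within their spread or missed the threshold in both experiments. These rows share most of their sequence, so an estimate for 1 row depends on those of the others.

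**Figure D3:**
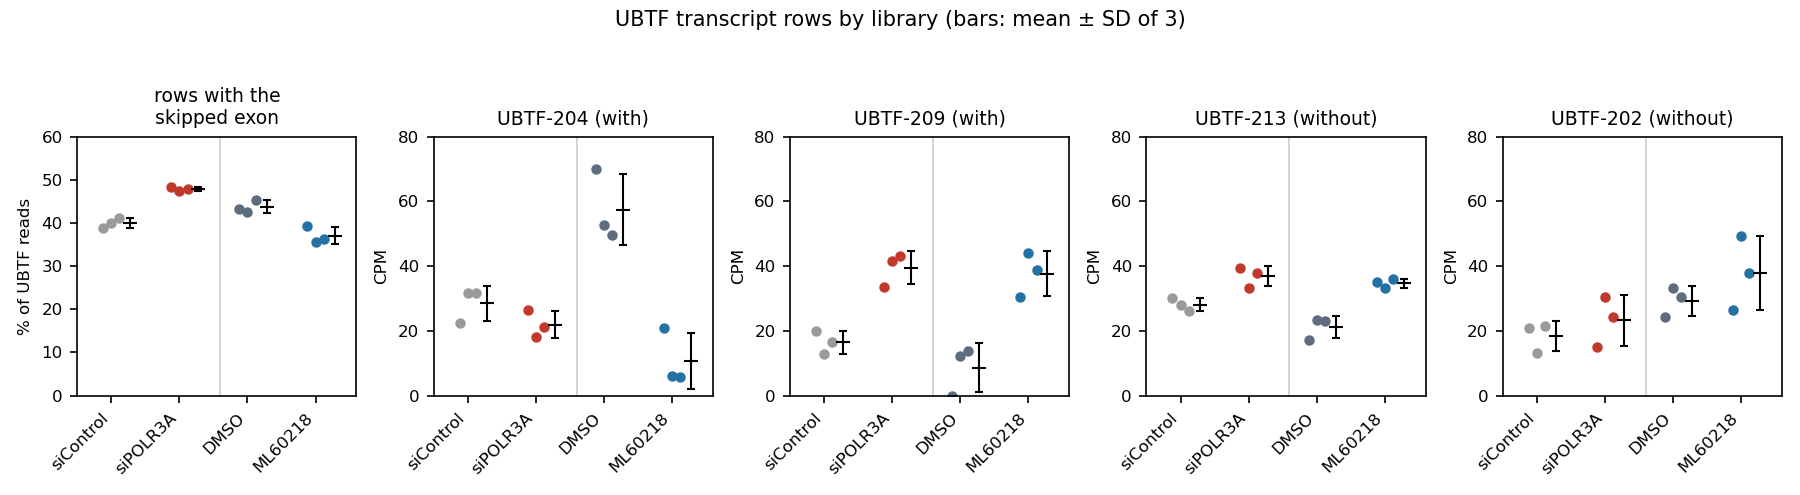
Share of UBTF reads on rows with the exon of 111 bases (percent, left) and CPM of 4 UBTF rows, per library with the mean and SD of 3. The share lies at 47.5 to 48.3% in siPOLR3A and 38.9 to 41.2% in siControl. UBTF-204 is lower and UBTF-209 higher in the ML60218 libraries than in DMSO.

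Of the 91 member rows, 49 passed the filter on low counts in each experiment. With siPOLR3A 10 were called, 4 higher and 6 lower, a share to be read against 11.3% of all rows. With ML60218 1 was called, against 2.09% of 70417 rows. An unadjusted edgeR p under 0.05 was found there for 14 member rows, with no share over all rows to set beside it. DESeq2 called 13 and 10 member rows, also without such a share. The count of 10 with siPOLR3A fell to 3 or 4 when any of its 6 libraries was left out.

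Per transcript length, POLR1D was the most abundant member in every group, at 116 ± 7.58, 106 ± 3.25, 124 ± 4.19 and 122 ± 5.20 TPM in siControl, siPOLR3A, DMSO and ML60218 (SD, n = 3). POLR1C followed in each, at 54.8 ± 3.82 to 67.1 ± 1.77 TPM, though in ML60218 its libraries overlapped those of UBTF. In siControl the order then ran POLR1B (49.4 TPM), UBTF (46.0 TPM), POLR1F (39.7 TPM), POLR1E (36.4 TPM), POLR1A (28.8 TPM), POLR1H (17.5 TPM), POLR1G (13.4 TPM) and RRN3 (4.92 TPM), and only POLR1F and POLR1E overlapped as neighbours. In DMSO, UBTF, POLR1B, POLR1E and POLR1F overlapped from each to the next, between 46.2 and 56.5 TPM. In ML60218, POLR1C, UBTF, POLR1B, POLR1F and POLR1E did so, between 53.0 and 65.9 TPM. With siPOLR3A, POLR1E moved from 36.4 ± 2.05 to 26.8 ± 0.768 TPM and came below POLR1A, with which it overlapped. The subunits are present in single copies in the enzyme, while the levels per length of their genes spanned 13.4 to 116 TPM in siControl. The value of POLR1D sums all its rows, and POLR1D-201, with the subunit's frame, held 46.5% of its reads in siControl.

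The TPM scale gave other directions for some members with ML60218. POLR1A went from 29.4 ± 0.768 to 35.7 ± 5.99 TPM and UBTF from 56.5 ± 2.82 to 62.7 ± 3.47 TPM, although both were lower in CPM. The differences in log2(TPM + 1) were 0.26 for POLR1A and 0.15 for UBTF, and the libraries overlapped. The median of all genes tested also shifted by 0.11 on this scale, against 0.0054 on the CPM scale. POLR1G was lower on both scales in both experiments (-0.65 and -0.48 in log2(TPM + 1)), as was POLR1E with siPOLR3A (-0.43).

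The other genes of the pathway were taken from 5 lists that were chosen with earlier results of these data known. Over all genes tested, 56.6% were called with siPOLR3A (27.4% higher, 29.2% lower) and 39.0% with ML60218 (18.1% higher, 20.9% lower). Of the small subunits shared by all 3 polymerases, with ML60218 all 5 fell, by a median log2 of -0.49 against 0.0054 over all genes. POLR2L went from 59.8, 57.5 and 56.8 CPM to 42.6, 36.2 and 30.9 CPM (-0.67 ± 0.11, edgeR adjusted p = 0.00370), and POLR2F from 86.8, 85.2 and 84.8 CPM to 64.8, 63.3 and 53.0 CPM (-0.51 ± 0.070, edgeR adjusted p = 0.00106). With siPOLR3A 4 of the 5 were called, POLR2L (0.24 ± 0.035) and POLR2F (0.22 ± 0.034) higher and 2 others lower, with a median of -0.071.

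SL1, the factor that selects the ribosomal promoter, consists of TBP and TAF1A to TAF1D. With siPOLR3A all 5 were called and 4 of them were higher, beside 56.6% and 27.4% of all genes. Their median log2 was 0.19. TBP rose from 34.2, 35.3 and 34.5 CPM to 47.0, 48.3 and 47.8 CPM (0.46 ± 0.035, edgeR adjusted p = 5.91e-08), and TAF1C from 50.5, 53.2 and 52.2 CPM to 69.5, 69.4 and 69.3 CPM (0.42 ± 0.031, edgeR adjusted p = 6.00e-08). With ML60218 2 of the 5 were called, beside 39.0% of all genes. Both were higher: TAF1A (0.46 ± 0.081, edgeR adjusted p = 0.00191) and TBP (0.15 ± 0.040, edgeR adjusted p = 0.0130). Called were 1 without DMSO library 1, and 4, of which 3 were higher and 1 lower, without ML60218 library 1.

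Of the 9 genes for termination and cofactors, 8 were called with siPOLR3A, 2 higher and 6 lower, beside 56.6% of all genes. CAVIN1, which encodes a transcript release factor that is also a coat protein of caveolae, went from 33.0, 33.3 and 33.7 CPM to 14.9, 15.9 and 15.4 CPM (-1.11 ± 0.048, edgeR adjusted p = 1.63e-10). TCOF1, for the nucleolar protein treacle, went from 329, 342 and 338 CPM to 213, 213 and 218 CPM (-0.65 ± 0.024, edgeR adjusted p = 3.16e-11). With ML60218 5 were called, 1 higher and 4 lower, beside 39.0% of all genes. The one that rose was MYC, a transcription factor that drives ribosome synthesis, from 99.0, 97.3 and 97.8 CPM to 137, 157 and 199 CPM (0.74 ± 0.15, edgeR adjusted p = 0.0168). Its call did not hold without any 1 of the DMSO libraries. CAVIN1 fell there too, by 0.34 (SE 0.057, edgeR adjusted p = 0.00163).

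The tUTP proteins, which link Pol I transcription to early rRNA processing, moved little with siPOLR3A although 5 of 6 were called (4 higher, 1 lower, median 0.074). Called were 2 without siControl library 2 or siPOLR3A library 3, and 3 without siControl library 3 or siPOLR3A library 2. NOL11 and UTP4 changed most, by 0.12 ± 0.027 and 0.12 ± 0.028 (edgeR adjusted p = 0.00193 and 0.00228). With ML60218 only NOL11 was called, lower (-0.25 ± 0.033, edgeR adjusted p = 0.000571), and without ML60218 library 1 another 3 were called, all higher. Of the 7 rDNA silencing genes, 4 were called in each experiment, 2 higher and 2 lower with siPOLR3A and 1 higher and 3 lower with ML60218. Their count with siPOLR3A lay close to the 56.6% of all genes. KDM2B, a histone demethylase, rose with siPOLR3A (0.33 ± 0.028, edgeR adjusted p = 2.21e-07), and BAZ2A, the large subunit of the nucleolar remodelling complex, fell (-0.25 ± 0.026, edgeR adjusted p = 1.45e-06). With ML60218 the demethylase gene KDM2A (-0.32 ± 0.037, edgeR adjusted p = 0.000300) and the histone methyltransferase gene SUV39H1 (-0.30 ± 0.052, edgeR adjusted p = 0.00163) changed most, both lower. Over the 5 lists together, 26 of 32 genes were called with siPOLR3A and 17 of 32 with ML60218, beside 56.6% and 39.0% of all genes.

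**Figure D4:**
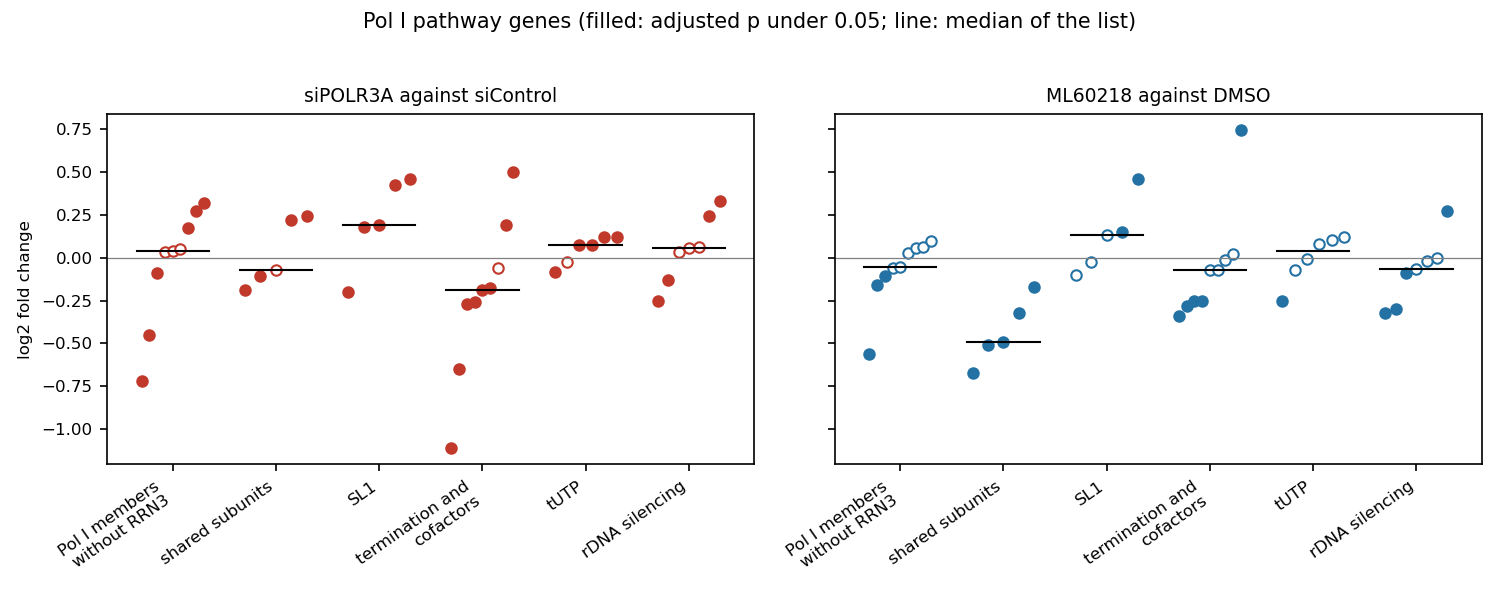
Log2 fold change of every gene in the 5 pathway lists and of the members without RRN3, filled where the edgeR adjusted p was under 0.05, with the median of each list as a line. The shared subunits all lie below 0 with ML60218 (median -0.49), and the SL1 genes lie mostly above 0 with siPOLR3A (median 0.19).

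Among 10296 protein-coding genes outside the members and lists, IFIT5 and LRRC75A were among those most like the mean pattern of the 6 subunits found only in Pol I over the 12 libraries, after centring within each experiment (Pearson r = 0.878 and 0.875). Those 6 subunits did not move together, with r between them from 0.8 (POLR1B with POLR1F) to -0.82 (POLR1E with POLR1H). A likeness to their mean is therefore not a likeness to each of them. Most like UBTF were EBNA1BP2 (0.983), S1PR1 (0.973) and TLCD3A (0.972). Between members, the highest correlation was that of POLR1C with UBTF (0.93) and the lowest that of POLR1E with POLR1H (-0.82). These values describe 12 libraries that share 4 groups and are given without a test.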

How the data were processed

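RNA of HEK293T cells was sequenced in 12 libraries made with a stranded mRNA kit, per the labels' protocols. The submitters' processing notes name bcl2fastq 2.20, Trim Galore, DESeq2 and the build hg38. The quantifier and its strand setting are not given in the sources used here. The deposited table gives each transcript row an estimated count and a TPM value per library, per the file headers, beside a length in bases (other columns). The design had assumed gene counts, so deposited estimated counts were summed over the rows of a gene and rounded. Rows were assigned to genes through GENCODE 29 (158359 of 194142 rows, 81.57%). The unassigned rows held 8.37 to 8.97% of the reads.

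Each experiment was tested on its own 6 libraries with edgeR 4.0.16 (R 4.3.3): filterByExpr, TMM, a robust quasi-likelihood fit, and Benjamini-Hochberg adjustment over all genes or rows, called under 0.05. The difference of the effects came from 1 fit of 12 libraries. CPM were computed after TMM scaling. Standard errors were derived from the log2 fold change and its F statistic. On simulated counts the fit was tested with 1.5-fold and 2-fold changes. DESeq2 1.42.0, other scalings, filters, a length offset, the replicate block and leaving out each library were alternatives.

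All members are named. Of each list, at most 2 called genes with the largest change per experiment are named. Transcript rows are named if they led their gene, held at least 10% of its reads in a group or were called. Genes that overlap a member were named for that overlap after their values were seen. The members, lists and rules were chosen with earlier results of these data known. Some named items are not reported here. Sequences were cut from the GENCODE 29 transcripts.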

Additional observations from a re-analysis of the deposited data

Results flagged for a closer look

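For 4 of the 10 genes the effect of siPOLR3A differed from that of ML60218 in the fit of all 12 libraries, beside 50.9% of the 15780 genes tested. The difference, siPOLR3A minus ML60218 on the log2 scale, was 0.43 for POLR1C, -0.51 for POLR1E, 0.30 for POLR1H and 0.29 for UBTF. All of these were called under each of the 20 alternatives tested for the difference, whose values ran from 0.38 to 0.47 for POLR1C, from -0.55 to -0.47 for POLR1E, from 0.25 to 0.34 for POLR1H and from 0.17 to 0.31 for UBTF. For the UBTF rows with the exon of 111 bases the difference was 0.80 (SE 0.067, edgeR adjusted p = 9.23e-08). That value rests on the row UBTF-204, without which the share of reads on such rows was higher in both treatments. The experiments differ in agent, vehicle and time (2 days against 4 hours), which cannot be told apart from the difference of the effects.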

How the results depend on the processing

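The counts of called members with siPOLR3A (6) and of differences between the effects (4) stayed within 1.5 times under all alternatives, at 5 to 8 and at 4 to 5. The count with ML60218 (4) was 1 to 5 when 1 library was left out, 1 without each DMSO library, and 3 to 4 under the other alternatives. The counts over the pathway lists stayed at 21 to 28 (siPOLR3A) and 14 to 22 (ML60218). Called member rows were the least stable. With siPOLR3A (10) they numbered 5 without the filter on low counts and 3 to 4 with a library left out, and with ML60218 (1) they numbered 10 with DESeq2 and 0 to 2 with a library left out. The replicate block gave 1 and 0 called rows, 6 and 3 called members, and an RRN3 change with ML60218 of -4.21 (edgeR adjusted p = 0.116). Deviations of libraries of the same number had correlations from -0.11 to 0.06. The best match was with the own number in 1 of 3 cases per experiment. With 3 libraries per group, these values cannot settle whether the numbers pair the samples.

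Reversed directions were found for small or unstable changes. RRN3 with siPOLR3A was 0.0064 with total counts, 0.012 with upper quartile scaling and between -1.48 and 0.74 with a library left out. With ML60218, POLR1A was 0.017 with total counts, 0.14 with the length offset and 0.26 on the TPM scale, POLR1D was 0.0078 with total counts, POLR1H was between -0.017 and 0.066 with a library left out, and UBTF was 0.0083 with the length offset, 0.15 on the TPM scale and 0.039 for rows without the exon. UBTF rows without the exon were at -0.027 with siPOLR3A. The differences of POLR1A (-0.078) and POLR1D (0.031) changed sign with the length offset, and that of POLR1F was between -0.088 and 0.0086 with a library left out. The share of UBTF reads on rows with the exon moved by -6.65 percentage points with ML60218, and by 17.2 with UBTF-204 left out. The causes were not tested. RRN3, with 0 to 2337 reads, had a standard error of 1.7 with siPOLR3A, and POLR1H, with 304 to 547 reads, had 0.065.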
